A study of Homo sapiens with 16 samples.

Results

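Short protein-coding genes were taken as all coding RefSeq transcripts (identifiers starting with NM_) whose listed end minus start was under 6000 bases. They made up 1212 of the 9461 coding transcripts measured (12.8%), and the tables held 10304 transcripts in all, with 843 of them noncoding. Their spans ran from 1149 bases in TAS2R5 to 5999 bases in NDUFB7, with a median of 3750.5 bases, against 31520 bases for the 8249 other coding transcripts. The cells were Kasumi-1, a human acute myeloid leukaemia line with the t(8;21) fusion RUNX1-RUNX1T1, in which SMARCA5 carried the FKBP12F36V tag. All groups carried the tag, and the 0 h group was untreated, with no vehicle named. The other groups received 500 nM dTAG-47, a small molecule that brings FKBP12F36V-tagged proteins to an E3 ubiquitin ligase for degradation, for 2, 6 or 24 h. Nascent RNA was measured by PRO-seq in 5 untreated libraries, 3 at 2 h, 4 at 6 h and 2 at 24 h, spread over 3 runs known here only by their codes. Run 1 held 0 h and 2 h, run 2 held all 4 times, and run 3 held 0 h and 6 h, so every 24 h value came from run 2. Whether the line was a single clone, and whether replicate libraries came from separate cultures, was not given in the sources used here, so p-values measured the spread between these libraries.

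SMARCA5 (SNF2H) is the ATPase of the ISWI family, which slides nucleosomes and sets their spacing. PRO-seq labels the RNA in engaged RNA polymerase during a nuclear run-on, so that reads mark polymerase along the gene and not the stored transcript. Polymerase commonly pauses shortly after the start site before it is released into the gene body, and the tables counted reads near promoters and in gene bodies separately. Short coding genes include many immediate early, stress-response, histone and ribosomal protein genes, often with few or no introns.

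The short genes were dense in polymerase but shallow in reads. Their median gene-body level was 2.39 CPM per kb (library-scaled reads divided by span, interquartile range 1.22 to 4.41), against 1.93 (1.13 to 3.14) for the other coding transcripts. HIST1H3D, a histone H3 gene, had the highest level of all short genes at 81.8, followed by ACTG1, cytoplasmic gamma-actin, at 47.8 and HEXIM1, an inhibitor of the elongation factor P-TEFb, at 47.7. Short genes held 50 of the 100 densest coding transcripts. Their median count in a library was nevertheless 167 gene-body reads against 1258, while near promoters it was 137 against 130. The standard error of a 2 h change was correspondingly 0.177 in log2 units (median) against 0.092. All 1212 short genes were tested in gene bodies and 1178 near promoters, where 34 had too few reads. Among those matched to an annotated exon number, 144 of 1160 (12.4%) had a single exon, against 10 of 7976 (0.125%) of the other coding transcripts. Of the short genes, 581 (47.9%) lay within 1000 bases of another listed transcript, against 29.1%, and 183 (15.1%) overlapped one, against 10.8%. They were most frequent on chromosome 19 in number (139 of 783 coding transcripts) and on chromosome 16 by share (101 of 472, 21.4%).

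The libraries held 11182894 to 34209362 gene-body reads and 1667950 to 7171601 near promoters. Transcription of SMARCA5 does not check the degradation of its protein, and its gene body changed by −0.27 ± 0.12 (log2, SE) at 2 h (edgeR adjusted p = 0.0779). Myeloid markers were present, with MPO (myeloperoxidase) at 96.3, KIT at 39.8, RUNX1 at 21.0, SPI1 at 7.33, CD34 at 4.92 and CD33 at 2.10 CPM per kb, and the epithelial marker EPCAM was at 1.27.

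Promoters are shown for the short genes on which the results below turn: OBFC2B and TCTA, whose gene bodies rose at every time, CCDC71L and FJX1, whose gene bodies fell at every time, and CEBPB, with a large promoter-proximal fall. Each is 300 bases long and spans the RefSeq start, 5′ to 3′ along the gene, on GRCh38.p14. These coordinates are a different build from the hg19 positions given elsewhere. Capitals mark matches, on either strand, to 8 short motifs. The TATA box, which positions initiation, was searched as TATAAA. The NF-Y motif, common in promoters of growth genes, was searched as CCAAT. The SP/KLF motif, frequent in promoters rich in CpG, was searched as GGGCGG. The E-box, read by basic helix-loop-helix factors, was searched as CACGTG. The AP-1 motif, read by the JUN and FOS families, was searched as TGACTCA. The CRE core, read by the CREB and ATF families, was searched as TGACG. The ETS motif, read by factors such as GABPA, was searched as CGGAAG. The NRF1-like motif, found in many housekeeping promoters, was searched as GCGCATG. The SP/KLF and ETS motifs can share bases, as can the NRF1-like and AP-1 motifs.
OBFC2B (RefSeq NABP2, chr12:56224092-56224391, plus strand): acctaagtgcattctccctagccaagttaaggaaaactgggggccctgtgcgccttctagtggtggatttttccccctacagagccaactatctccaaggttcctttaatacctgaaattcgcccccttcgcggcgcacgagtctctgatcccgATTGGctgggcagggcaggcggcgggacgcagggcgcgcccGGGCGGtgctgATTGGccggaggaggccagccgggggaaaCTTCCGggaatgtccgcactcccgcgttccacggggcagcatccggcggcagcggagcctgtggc
TCTA (chr3:49412173-49412472, plus strand): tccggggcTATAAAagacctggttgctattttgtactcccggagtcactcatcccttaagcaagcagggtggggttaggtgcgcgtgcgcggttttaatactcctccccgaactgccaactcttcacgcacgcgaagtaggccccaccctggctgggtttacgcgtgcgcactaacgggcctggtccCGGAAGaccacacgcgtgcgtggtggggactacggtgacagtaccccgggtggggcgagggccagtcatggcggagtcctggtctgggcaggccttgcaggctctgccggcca
CCDC71L (chr7:106661109-106661408, minus strand): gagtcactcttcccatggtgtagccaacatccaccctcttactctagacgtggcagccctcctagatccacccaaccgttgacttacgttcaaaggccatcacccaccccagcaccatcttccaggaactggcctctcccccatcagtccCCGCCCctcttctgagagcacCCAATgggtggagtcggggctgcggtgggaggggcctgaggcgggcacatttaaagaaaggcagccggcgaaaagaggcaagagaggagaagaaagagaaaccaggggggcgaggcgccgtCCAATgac
FJX1 (chr11:35618210-35618509, plus strand): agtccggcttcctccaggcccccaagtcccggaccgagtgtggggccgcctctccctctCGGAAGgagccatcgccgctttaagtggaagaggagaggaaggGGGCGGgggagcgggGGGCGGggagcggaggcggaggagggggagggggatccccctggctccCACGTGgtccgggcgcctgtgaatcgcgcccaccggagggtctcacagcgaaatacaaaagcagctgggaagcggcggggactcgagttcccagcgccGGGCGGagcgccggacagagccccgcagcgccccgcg
CEBPB (chr20:50190333-50190632, plus strand): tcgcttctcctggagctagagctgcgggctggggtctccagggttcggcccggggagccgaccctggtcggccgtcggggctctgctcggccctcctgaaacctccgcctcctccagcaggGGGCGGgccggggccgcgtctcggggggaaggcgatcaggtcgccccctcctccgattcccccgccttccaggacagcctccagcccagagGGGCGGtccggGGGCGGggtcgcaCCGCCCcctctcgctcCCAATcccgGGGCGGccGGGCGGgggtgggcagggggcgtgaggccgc
OBFC2B held the NF-Y, SP/KLF and ETS motifs, and TCTA held the TATA box and the ETS motif. CCDC71L and CEBPB held the NF-Y and SP/KLF motifs, and FJX1 held the SP/KLF motif, the E-box and the ETS motif. Of all 35116 RefSeq promoters in the table, 11.5% held the TATA box, 34.6% the NF-Y motif, 45.0% the SP/KLF motif, 7.26% the E-box, 4.95% the AP-1 motif, 24.6% the CRE core, 19.5% the ETS motif and 4.43% the NRF1-like motif. These matches describe letters in a window and say nothing of binding. NOL3 and TMEM55B, named below, were not in the promoter table.

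Relative to the typical transcript, gene-body transcription of short genes was higher at 2 h of dTAG-47. By edgeR's quasi-likelihood test at an adjusted p of 0.05, 397 of the 1212 rose (32.8%) and 40 fell (3.30%). The scaling set the typical gene-body count as unchanged, with medians over all transcripts of 0.014, 0.012 and 0.011 at 2, 6 and 24 h. Rises and falls are therefore relative, and absolute changes were not measured. Over all transcripts tested at 2 h, 38.6% passed the test, 19.7% upward and 18.9% downward. The median short gene changed by 0.29 (log2, interquartile range 0.02 to 0.56), and 931 (76.8%) were higher, while the other coding transcripts split into 1437 that rose and 1811 that fell around a median of −0.02. At 6 h, 178 short genes rose (14.7%) and 58 fell (4.79%), with a median of 0.17 (−0.08 to 0.39) and 820 higher (67.7%). The share of all transcripts passing at 6 h was 26.8%, with 13.5% rising and 13.4% falling. At 24 h, 200 rose (16.5%) and 20 fell (1.65%), with a median of 0.26 (−0.02 to 0.54) and 898 higher (74.1%), against 19.8% of all transcripts passing, 10.8% upward and 9.08% downward. Most changes were modest, since 65, 35 and 64 short genes passed the test with more than a 2-fold change at 2, 6 and 24 h. The comparisons at the 3 times share the untreated libraries and are given side by side.

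Other coding transcripts were weighted in 2 ways and used as references, because short genes differ in density and in reads. Matched on density, 17.3% of the others rose and 21.9% fell at 2 h, 11.9% and 15.5% at 6 h, and 9.28% and 10.6% at 24 h. The median short gene stood above these matched transcripts by 0.30, 0.18 and 0.28 (log2). Matched on read number, 22.0% rose and 13.8% fell at 2 h, 16.6% and 12.8% at 6 h, and 10.6% and 11.8% at 24 h. The medians of others matched on reads were 0.08, 0.05 and 0.04, against −0.01, −0.01 and −0.02 when matched on density. The excess of short genes was thus smaller over the reference matched on reads. The rising share of short genes was thus above both references at 2 h and 24 h, and at 6 h it lay below the reference matched on reads. These shares are descriptions, and no test was made over the set.

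**Figure D1:**
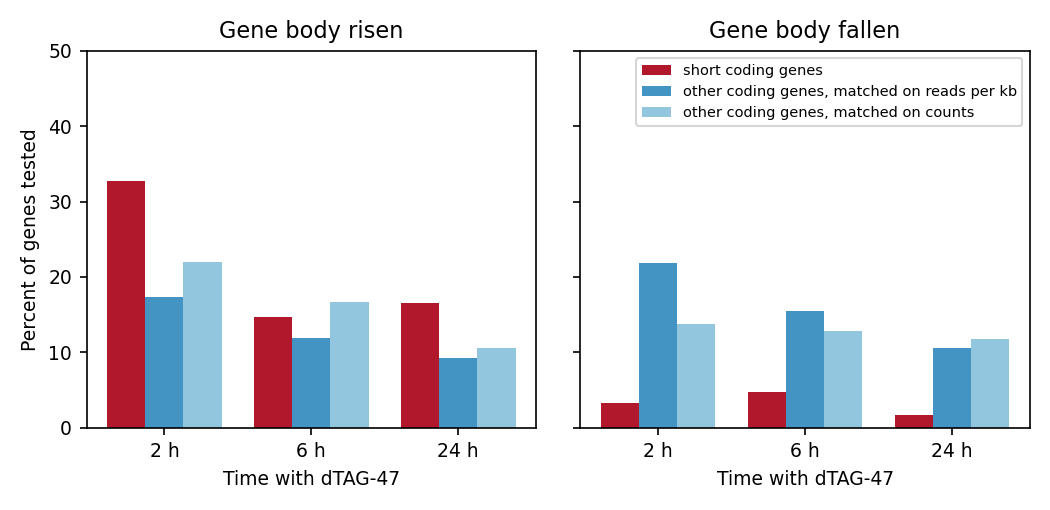
Percent of genes tested whose gene body rose (left) or fell (right) at 2, 6 and 24 h against 0 h, at an edgeR adjusted p of 0.05, as bars for short coding genes and for other coding genes matched on reads per kb or on counts. The short-gene bar for rises is highest at 2 h (32.8%), and its bars for falls stay between 1.65% and 4.79%.

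The shift was seen within each run. The density score of a library is the median log2 gene-body level of short genes minus that of density-matched other coding transcripts. In run 1 it was −0.41 and −0.17 in the untreated libraries and 0.15 at 2 h. In run 2 it was −0.17 and −0.16 untreated, −0.017 and 0.096 at 2 h, 0.008 and 0.003 at 6 h, and 0.073 and 0.083 at 24 h. In run 3 the untreated library scored 0.046 and those at 6 h 0.30 and 0.15. Treated libraries lay above the untreated of their own run in each run, but across runs the untreated library of run 3 lay above several treated ones of run 2. The 2 untreated libraries of run 1 themselves differed, with a median gap of short genes relative to the others of −0.196 between A and B, as large as the 6 h change, whereas those of run 2 differed by −0.020. The share of gene-body reads in short genes went from 1.58% and 1.79% to 2.26% in run 1, from 1.89% and 1.93% to between 1.97% and 2.22% in run 2, and from 2.08% to 2.40% and 2.15% in run 3.

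**Figure D2:**
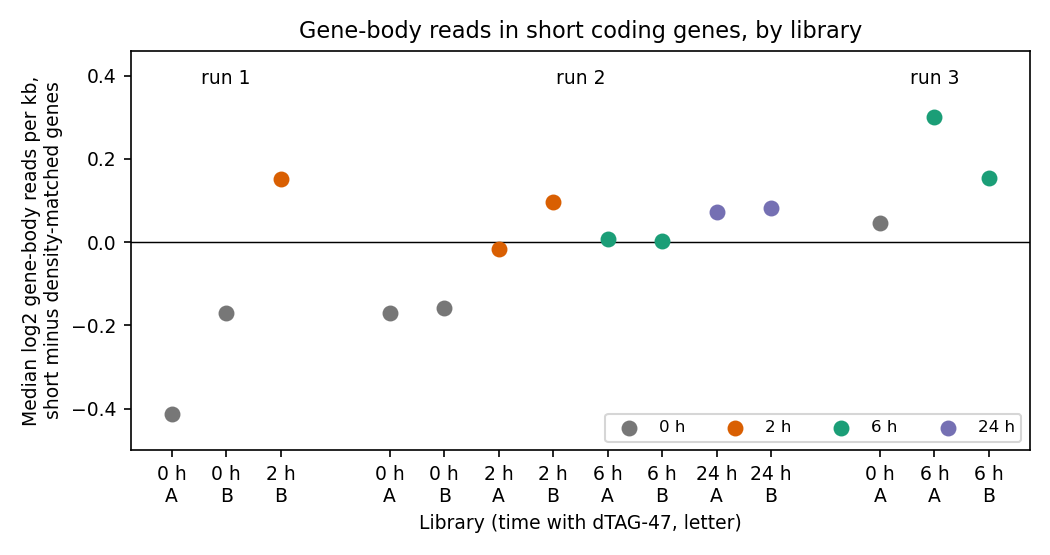
Density score (log2) of each of the 14 libraries as 1 point, arranged by run, time and letter and coloured by time. Within each run the treated libraries sit above the untreated ones, and the untreated points span −0.41 to 0.046.

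Within single runs, the median gene-body change of short genes was 0.40 at 2 h in run 1 (929 of 1212 higher) and 0.20 in run 2 (836 higher). It was 0.11 at 6 h in run 2 (730 higher) and 0.14 in run 3 (774 higher), and 0.23 at 24 h in run 2 (824 higher). Density-matched others had medians of −0.034, −0.010, −0.020, −0.004 and −0.019 in the same order. The 2 h change in run 1 was the larger, and it rested on 1 treated library. Of the 397 genes that rose at 2 h, 392 were higher in both runs, and all 40 that fell were lower in both. At 6 h, 178 of 178 and 57 of 58 went the same way in both runs. These genes were called from the same libraries, so their agreement in direction was largely set by that selection and is no separate support. With no term for run in the fit, 107 short genes rose and 16 fell at 2 h, and 82 and 10 did at 24 h.

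The 2 h shift was graded with gene span and had no break at 6000 bases. The 121 genes under 2 kb had a median 2 h change of 0.35, the 559 between 2 and 4 kb 0.30 and the 532 between 4 and 6 kb 0.27. Beyond the limit the medians went on downward, to 0.18 at 6 to 12 kb, 0.07 at 12 to 25 kb, −0.04 at 25 to 50 kb, −0.11 at 50 to 100 kb, −0.13 at 100 to 150 kb and −0.19 above 150 kb. The share that rose at 2 h was 21.5%, 31.3% and 36.8% in the 3 short classes and 30.2% at 6 to 12 kb, and it was down to 5.47% above 150 kb. The share that fell went from 0% under 2 kb to 50.9% above 150 kb. Median counts went from 43.6 under 2 kb to 4973 above 150 kb, so the power to call a change differed between the classes. At 24 h the medians were 0.29, 0.30 and 0.23 in the short classes and −0.08 above 150 kb. At 6 h the shortest class did not follow this order, with 0.08 under 2 kb, 0.20 at 2 to 4 kb, 0.17 at 4 to 6 kb and 0.08 at 6 to 12 kb. Across all coding transcripts Spearman's rho of span with the 2 h change was −0.415, whereas among the short genes alone it was −0.017. These correlations run over 9461 and 1212 genes measured in the same libraries and are descriptive. At the limit, NDUFB7, CNIH2 and CLIC1 (5999, 5987 and 5983 bases) had 2 h changes of 0.49, 0.18 and 0.05, and ANKLE1, ALDH1B1 and CDK2 (6000, 6001 and 6012 bases) had 0.44, 0.03 and 0.36.

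**Figure D3:**
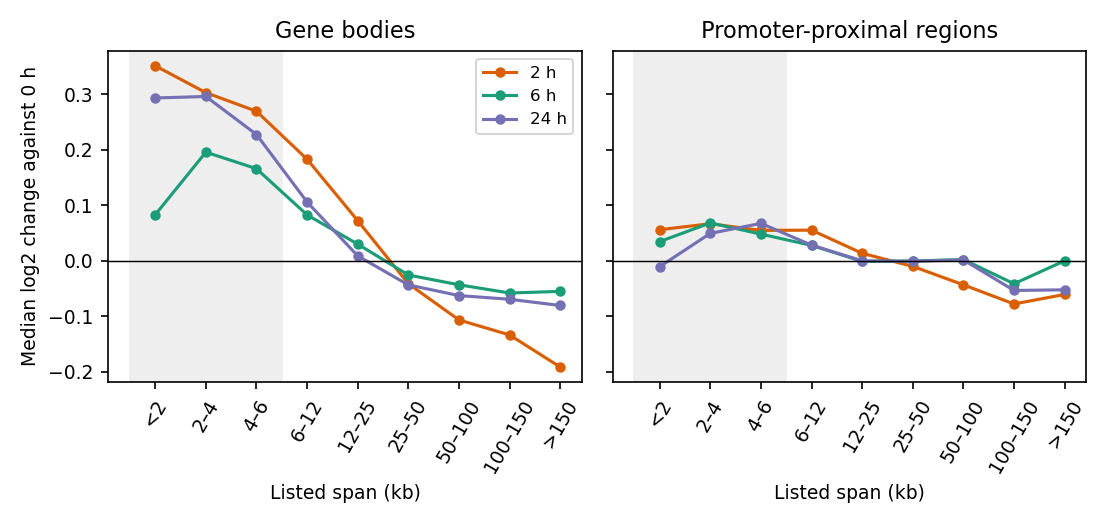
Median log2 change against 0 h in gene bodies (left) and promoter-proximal regions (right) for 9 classes of listed span in kb, with a line per time and the short classes shaded. In gene bodies the 2 h medians go from 0.35 in the shortest class to −0.19 in the longest, and cross 0 between the classes of 12 to 25 kb and 25 to 50 kb.

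Among the short genes, those with a single exon had smaller median changes. At 2 h their median change was 0.09, with 23 of 144 rising and 10 falling, against 0.32, with 353 of 1016 rising and 30 falling, for short genes with introns. Short genes within 1000 bases of another transcript had a median of 0.35 (223 of 581 rising, 10 falling), and isolated ones 0.22 (174 of 631 rising, 30 falling). Reads from a neighbour can enter the counts of such genes, and whether strand was used in counting was not given in the sources used here. In 4 equal classes of gene-body density, from lowest to highest, the 2 h medians were 0.39, 0.33, 0.33 and 0.18. Differences among these classes were not tested.

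Across the 3 times, 114 short genes rose at each time and 9 fell at each, 455 rose at least once, 78 fell at least once, 679 passed at no time, and 0 passed in opposite directions. The genes with rises confined to a single time numbered 200 at 2 h, 22 at 6 h and 27 at 24 h. Among the 9 that fell at each time, CXCL2, a neutrophil chemokine, fell by 1.51, 1.10 and 1.13, CCR10, a chemokine receptor, by 1.19, 1.49 and 1.41, and KCNJ11, a potassium channel subunit, by 1.21, 1.02 and 1.35. CXCL2, CCR10 and KCNJ11 were named after their values were seen. The naming rule, which asked for a mean of at least 100 counts, did not include them. Their levels and errors are not given here. DHRS13 and RELL2, also among the 9, lay within 1000 bases of another transcript.

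NOL3, an inhibitor of apoptosis that binds caspases (chromosome 16, 67204405 to 67209643), rose throughout. Its gene body held 3.23 and 3.30 CPM in the untreated libraries of run 1, 7.90 and 8.20 in run 2 and 8.62 in run 3. It held 15.0, 16.3 and 15.4 CPM at 2 h, 14.3, 16.1, 22.4 and 20.6 at 6 h, and 19.9 and 18.7 at 24 h. All treated libraries lay above all untreated ones. The log2 changes were 1.52 ± 0.18 (SE, edgeR adjusted p = 0.00011), 1.25 ± 0.19 (0.000491) and 1.56 ± 0.22 (0.000502). NOL3 overlaps KIAA0895L by 138 bases and lies 557 bases from HSF4, a heat shock factor gene whose own 2 h change was 1.36, so reads near the shared ends cannot be assigned with certainty.

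OBFC2B, which encodes the single-stranded DNA-binding protein hSSB1 (chromosome 12, 56618125 to 56623638), rose in its gene body and near its promoter. Gene-body levels were 4.05, 2.63, 3.60, 5.16 and 6.72 CPM untreated, 12.2, 13.0 and 12.1 at 2 h, 12.0, 11.3, 11.2 and 14.6 at 6 h, and 11.3 and 11.3 at 24 h. No treated library reached down to the untreated range. The changes were 1.61 ± 0.18 (adjusted p = 7.05e-05, edgeR), 1.28 ± 0.18 (0.000352) and 1.36 ± 0.22 (0.00146). Near the promoter it held 37.4, 41.8, 37.6, 42.1 and 91.4 CPM untreated and 208, 150 and 162 at 2 h. The promoter-proximal level at 6 h was 133 and 132 in run 2 but 78.6 and 174 in run 3, so there the groups overlapped. The promoter-proximal changes were 1.96 ± 0.27 at 2 h (0.000797), 1.30 at 6 h (0.0123) and 1.48 at 24 h (0.0263) by edgeR, the largest promoter-proximal rise at 2 h among the short genes. Scaled by gene-body size factors, as in the authors' deposited tables, the 2 h rise was 1.84 and still passed (edgeR adjusted p = 0.00975), whereas the values of 1.07 at 6 h and 1.25 at 24 h did not (0.187 and 0.336).

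TCTA, a small membrane protein gene at 49449639 to 49453909 on chromosome 3, held 5.43 to 8.39 CPM untreated (median 6.07). It held 12.7, 10.2 and 12.4 at 2 h, 11.4, 12.4, 11.3 and 12.4 at 6 h, and 16.0 and 13.4 at 24 h, again without overlap. It rose by 0.89 ± 0.14, 0.79 ± 0.14 and 1.20 ± 0.17 (edgeR adjusted p = 0.000596, 0.00179 and 0.000611). RHOA, 113 bases away, had a 2 h change of −0.06. TMEM55B, a phosphoinositide phosphatase gene of the lysosome, rose by 0.71, 0.72 and 0.97, and ECM1, which encodes a secreted matrix protein, by 1.41, 1.24 and 0.94. ORAI3, a calcium channel subunit, rose by 0.38, 0.39 and 0.40, from 84.6 to 123 CPM untreated to 111 to 169 treated. Its levels overlapped between groups when libraries of different runs were set together, and its rise was small, with an error of 0.06 at 2 h.

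CCDC71L, a single-exon gene on chromosome 7 (106297211 to 106301634), had the largest fall of the 9 at each time. It held 36.2, 30.6, 18.8, 24.7 and 26.3 CPM untreated, 8.74, 9.28 and 10.4 at 2 h, 6.35, 6.93, 4.81 and 5.50 at 6 h, and 6.79 and 7.56 at 24 h. Each treated library lay below each untreated one. The gene body fell by 1.53 ± 0.18, 2.07 ± 0.18 and 1.83 ± 0.23 (log2, edgeR adjusted p = 9.54e-05, 7.47e-06 and 0.000223). Near its promoter it fell by 1.92 and 1.91 at 2 and 6 h (edgeR adjusted p = 0.00659 and 0.00699), and the 24 h value of −1.71 did not pass (0.0623).

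FJX1, the single-exon homologue of the fly four-jointed kinase (chromosome 11, 35639735 to 35642421), fell alike. Its gene body held 6.07, 6.88, 9.63, 13.0 and 10.3 CPM untreated, 2.72, 2.75 and 4.83 at 2 h, 3.79, 2.65, 3.15 and 2.14 at 6 h, and 3.11 and 3.51 at 24 h. The groups did not overlap. The gene body fell by 1.45 ± 0.21, 1.85 ± 0.21 and 1.73 ± 0.27 (edgeR adjusted p = 0.000344, 5.97e-05 and 0.00108). Near the promoter, untreated levels of 18.2 to 47.8 CPM compared with 10.4, 9.07 and 13.7 at 2 h and 5.01 and 5.20 at 24 h. The promoter-proximal falls were by 1.87 ± 0.29, 2.35 ± 0.31 and 3.01 ± 0.41. The 24 h libraries held 2073677 and 2454091 promoter-proximal reads in all, so the 24 h levels of FJX1 there rest on few reads. The gene-body calls of NOL3, OBFC2B, TCTA, TMEM55B, FJX1 and CCDC71L held at all 3 times in each alternative fit and with each library left out. These genes were picked by their calls in the same libraries, so this describes the fits and is no separate support.

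**Figure D4:**
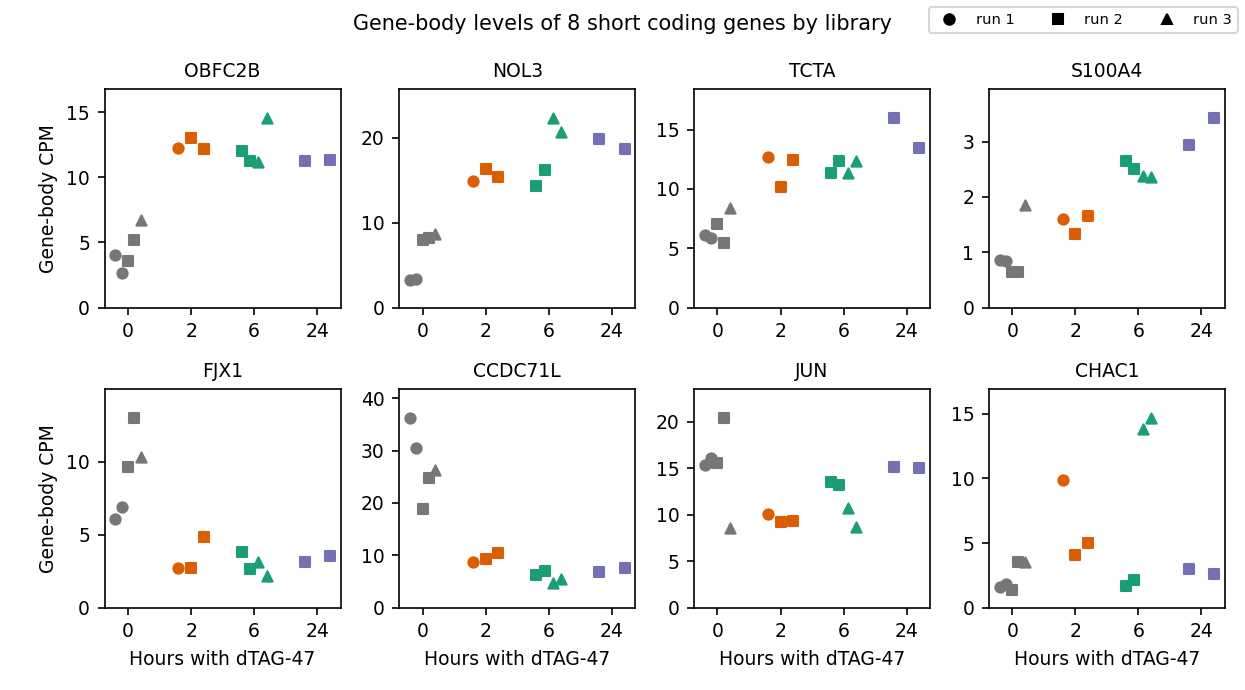
Gene-body level (CPM, linear axis from 0) of 8 short coding genes in each of the 14 libraries by hours with dTAG-47, with a marker shape per run. NOL3, OBFC2B and TCTA sit higher in each treated library than in any untreated one, CCDC71L and FJX1 sit lower, and CHAC1 separates by run at 6 h.

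The lists of gene groups that follow were chosen with earlier results of these data known. Their counts are read beside the shares of all transcripts and of short genes given above. All short genes had medians of 0.29, 0.17 and 0.26 at 2, 6 and 24 h. The 8 ATF4 and endoplasmic reticulum stress genes had medians of 0.66, 0.29 and 0.42 at 2, 6 and 24 h, with 4, 1 and 1 rising and 0 falling. CHAC1, a glutathione-degrading ATF4 target, held 1.35 to 3.53 CPM untreated, then 9.88 at 2 h in run 1 but 4.09 and 4.97 in run 2. At 6 h it held 1.68 and 2.14 in run 2 against 13.8 and 14.7 in run 3, and at 24 h 3.03 and 2.60. It rose by 2.01 ± 0.37 at 2 h (edgeR adjusted p = 0.00133), while the 6 h value of 1.09 did not pass (0.0702). MANF, a secreted stress-induced factor, rose by 0.83, 0.47 and 0.53, and DDIT3, which encodes CHOP and whose listed span overlaps MARS, rose by 0.48 at 2 h. Runs disagreed in size for this list, with a 2 h median of 0.98 in run 1 but 0.14 in run 2. For 6 h, run 2 gave −0.07 and run 3 gave 0.47.

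The 8 heat shock genes had medians of 0.53, 0.24 and 0.42, with 4, 1 and 2 rising and 0 falling. HSPA1A, the inducible HSP70, rose by 1.97 ± 0.30 at 2 h (edgeR adjusted p = 0.000426) and 1.49 at 24 h (0.0175). Its reads may be shared with the near-identical HSPA1B, which rose by 0.68 at 2 h. HSPA1L, 456 bases from HSPA1A, rose by 1.35 at 2 h (edgeR adjusted p = 0.00661). Reads near their ends cannot be assigned with certainty, so the 2 h rises of HSPA1A, HSPA1B and HSPA1L are not taken as separate. DNAJB1, an HSP40 co-chaperone, rose by 0.84 ± 0.10, 0.38 and 0.48. This list also moved with run, with 2 h medians of 1.05 in run 1 and 0.35 in run 2, and 6 h medians of 0.15 in run 2 and −0.004 in run 3.

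Of the 30 immediate early and inducible genes, 7 rose and 3 fell at 2 h, 3 and 5 at 6 h, and 7 and 1 at 24 h, with medians of 0.09, −0.03 and 0.27. JUN, an AP-1 subunit, held 15.3, 16.1, 15.6, 20.4 and 8.56 CPM untreated and 10.1, 9.28 and 9.38 at 2 h. The untreated library of run 3 lay below all 3 libraries at 2 h, and the other untreated ones lay above them. It fell by 0.75 ± 0.14 at 2 h (edgeR adjusted p = 0.00178), and its later values were −0.17 and −0.10, with 13.5, 13.2, 10.7 and 8.72 CPM at 6 h and 15.2 and 15.0 at 24 h. PIM1, a survival kinase, rose by 0.57 at 2 h and 1.21 at 24 h, with 0.29 at 6 h not passing. DUSP6, a phosphatase of ERK, rose at 24 h alone, by 0.65 ± 0.09 (0.000333), with 66.9 and 68.3 CPM against 32.8 to 52.0 untreated. In run 1 the list's 2 h median was 0.30 and in run 2 −0.10.

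The cytosolic ribosomal protein genes had medians near 0. Of 57, 6 rose and 2 fell at 2 h, 0 and 6 at 6 h, and 3 and 2 at 24 h, and the medians were 0.06, −0.11 and −0.05. At 2 h 42 were higher and at 6 h 13. RPL10A rose by 0.71 ± 0.09 at 2 h. Their processed pseudogenes and multi-copy sequence make single counts uncertain. By contrast the 24 mitochondrial ribosomal protein genes had medians of 0.26, 0.21 and 0.25, near those of all short genes. Of these, 6, 0 and 1 rose and 0 fell.

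The 22 respiratory chain and ATP synthase genes had medians of 0.36, 0.19 and 0.21, with 7, 4 and 3 rising and 1, 0 and 0 falling. At 6 h their median was 0.24 in run 2 but −0.03 in run 3, where 9 of 22 were higher, and with no run term the 24 h median was 0.05 with 0 rising. CYC1, cytochrome c1 of complex III, rose by 0.61, 0.38 and 0.49. Among 5 proteasome subunit genes 2, 0 and 1 rose, around medians of 0.40, 0.27 and 0.43, and among 6 small spliceosome subunit genes 2, 0 and 2 rose and 1, 0 and 0 fell, around 0.27, 0.10 and 0.28. Of 14 cell cycle genes, 5, 2 and 3 rose and 1, 1 and 0 fell, with medians of 0.35, 0.20 and 0.36. CDKN1B, the inhibitor p27, fell by 0.54 at 2 h and 0.32 at 6 h. TUBB4B, a beta-tubulin gene that overlaps FAM166A by 122 bases, rose by 1.14, 0.50 and 1.10. The 8 histone genes measured had medians of −0.03, 0.27 and 0.39, with 1, 1 and 2 rising and 0 falling, and their 2 h medians were 0.38 in run 1 and −0.38 in run 2.

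The 12 haematopoietic transcription factors had medians of 0.09, −0.01 and 0.29, with 4, 0 and 4 rising and 2, 1 and 0 falling. CEBPA, which drives granulocyte commitment, rose by 0.75 at 2 h (edgeR adjusted p = 0.00304) and 0.75 at 24 h (0.0181), and CEBPE, its late granulocytic relative, by 0.70 and 1.12. In run 2 alone the list's median was −0.27 at 2 h and −0.23 at 6 h, with 1 rising and 4 falling at each time. CEBPA and CEBPE do not stand for the list, and the factors that fell are not named here. Of the 16 myeloid granule and surface genes, 7, 3 and 5 rose and 1, 1 and 0 fell, around medians of 0.40, 0.10 and 0.52, and at 6 h the median was 0.05 in run 2 and −0.03 in run 3. S100A4, a calcium-binding protein of motile cells, held 0.853, 0.842, 0.642, 0.645 and 1.85 CPM untreated, 1.60, 1.34 and 1.66 at 2 h, 2.65, 2.51, 2.38 and 2.36 at 6 h, and 2.94 and 3.44 at 24 h. All treated libraries lay above the untreated of runs 1 and 2. It rose by 0.76, 1.17 and 1.78 ± 0.33 (edgeR adjusted p = 0.0032 at 24 h). The libraries of run 2 held 11182894 to 16138846 gene-body reads in all, so these S100A4 levels rest on few reads. S100A11 rose by 0.92, 0.79 and 1.0.

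**Figure D5:**
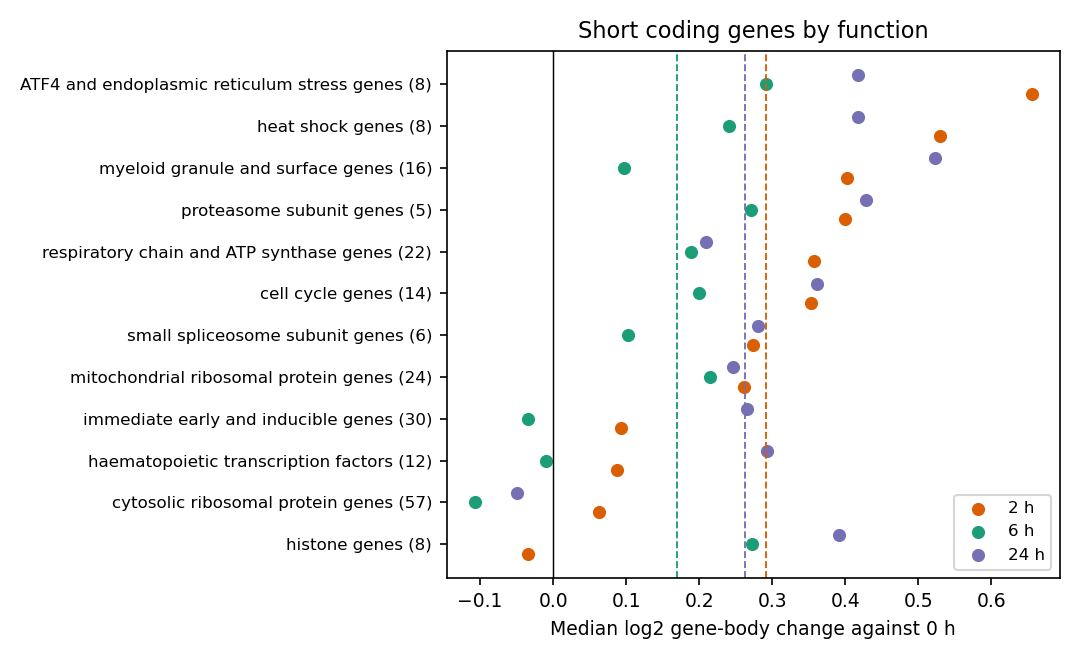
Median log2 gene-body change of the short genes in each of 12 lists at 2, 6 and 24 h (points), with the median of all short genes at each time as a dashed line and the number of genes in brackets. The ATF4 list stands highest at 2 h (0.66), and the cytosolic ribosomal protein genes lowest at 6 h (−0.11).

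Few short genes differed between 2 h and 24 h, with 8 higher and 3 lower at 24 h, against 4.08% of all transcripts passing (3.03% upward and 1.05% downward). The median difference was −0.04. MFAP4, a matrix glycoprotein gene, rose by 0.78, 0.97 and 1.71 against 0 h. It overlaps by 102 bases MAPK7, which itself rose by 0.90, 0.79 and 1.02. ID2, an inhibitor of basic helix-loop-helix factors, rose by 1.21 at 24 h after −0.42 at 2 h, which did not pass. HLX, a homeobox factor of myeloid progenitors, rose by 0.73 at 24 h.

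Near promoters the short genes changed little. At 2 h 42 rose and 18 fell, at 6 h 12 and 16, and at 24 h 13 and 6, with medians of 0.06, 0.05 and 0.05. Over all transcripts 4.61% passed at 2 h (2.43% up, 2.17% down), 2.24% at 6 h (0.802% and 1.44%) and 1.41% at 24 h (0.631% and 0.782%). These calls set the typical promoter-proximal count as unchanged. Scaled instead by the gene-body size factors, the median of all transcripts near promoters moved down by 0.16, 0.24 and 0.23, the medians of short genes became −0.11, −0.18 and −0.18, and 1 rose and 2 fell, 0 and 8, and 0 and 5. In the authors' deposited tables, whose promoter-proximal values use that scaling, 1 short gene rose and 4 fell at 2 h, 0 and 9 at 6 h, and 0 and 4 at 24 h. The direction of the promoter-proximal calls thus depended on the scaling. In gene bodies the authors' deposited tables gave 377 rising and 45 falling at 2 h, 174 and 60 at 6 h, and 211 and 21 at 24 h.

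LTC4S, leukotriene C4 synthase, rose near its promoter at each time, by 1.32, 1.28 and 1.65, under the promoter-proximal scaling. With gene-body size factors its values were 1.18, 1.05 and 1.42, and none passed (edgeR adjusted p = 0.192, 0.223 and 0.226). It held 26.2 to 33.2 CPM untreated and 97.6, 77.4 and 64.1 at 2 h, 115 and 76.8 at 24 h, and at 6 h 82.2, 91.0, 17.3 and 63.2, where library A of run 3 lay below the untreated range. CEBPB, an inducible myeloid factor, fell near its promoter by 1.62 ± 0.29 at 6 h and 2.03 ± 0.36 at 24 h (edgeR adjusted p = 0.00594 and 0.00921). It held 43.9, 59.7, 100, 111 and 41.0 CPM untreated, 33.9, 18.7, 16.7 and 19.1 at 6 h, and 12.5 and 30.4 at 24 h. All libraries at 6 and 24 h lay below the untreated ones. Its gene-body values of 0.16, −0.46 and −0.32 did not pass.

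Promoter-proximal values were next read for the genes that passed in gene bodies, under the promoter-proximal scaling. Of the 397 that rose at 2 h (median 0.67), 391 were tested there, of which 30 rose, 3 fell and 279 were higher, with a median of 0.26. Of the 40 that fell (median −0.62), 37 were tested, of which 0 rose and 3 fell, with a median of −0.25. At 6 h the promoter-proximal median was 0.28 for those that rose and −0.43 for those that fell, and at 24 h 0.29 and −0.77. With gene-body size factors only 1 short gene rose near its promoter at 2 h, and the median of all transcripts was lower by 0.16, so these counts hold for the former scaling. Both regions were read from the same libraries.

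The promoter-proximal change minus the gene-body change, tested by limma, had medians of −0.21, −0.12 and −0.24 in the short genes at 2, 6 and 24 h, with 4 rising and 34 falling at 2 h, 3 and 9 at 6 h, and 0 and 8 at 24 h. Over all transcripts 1.54% passed at 2 h (0.571% up, 0.972% down), 0.451% at 6 h (0.13% and 0.321%) and 0.311% at 24 h (0.0802% and 0.23%). Within runs, the 2 h median was −0.376 in run 1 and −0.165 in run 2, against 0.014 and −0.039 in density-matched transcripts, and the 24 h median in run 2 was −0.219 against −0.022. At 6 h it was −0.112 against −0.019 in run 2, but −0.011 against −0.005 in run 3, where no lowering was seen. CKB, brain-type creatine kinase, fell in this measure by 1.5 ± 0.21, 0.96 and 1.26 (limma adjusted p = 0.00137 at 2 h), and at 2 h it fell by 1.17 near the promoter. SWSAP1, a recombination factor gene, fell by 1.32, 1.16 and 1.90, with a gene-body rise of 1.19 at 2 h. CD37, a leukocyte tetraspanin gene, fell by 1.62 at 2 h, where its gene body rose by 0.69 and its promoter-proximal level fell by 0.93. With gene-body size factors the promoter-proximal falls of CKB and CD37 no longer passed (edgeR adjusted p = 0.139 and 0.203).

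TAF7, a TFIID subunit gene with a gene-body fall of 0.73 at 2 h, rose in the difference by 1.09 ± 0.25 (limma adjusted p = 0.038). RPS18, of the small ribosomal subunit, rose in the difference by 0.97 ± 0.23 (0.0434) with a promoter-proximal rise of 1.03, which did not pass with gene-body size factors (edgeR adjusted p = 0.355). The share of short genes' reads that lay near promoters moved in opposite ways between runs, from 48.1% and 54.2% to 58.7% at 2 h in run 1, and from 67.3% and 67.6% to between 49.3% and 59.7% in run 2. In run 3 it went from 50.9% to 44.3% and 50.6%. Its part in the difference between regions was not tested.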

How the data were processed

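PRO-seq reads of 14 libraries were given as raw counts per transcript, near promoters and in gene bodies, in 6 tables the authors deposited. Per the submitters' processing notes, the build was hg19 and the tools included Bowtie2 2.2.2 and Trimmomatic 0.32, with HOMER, DESeq2, DESeq and SAMtools. Counting windows, strand and tool were not given in the sources used here. The same tables hold the authors' deposited log2 fold changes and adjusted p-values. All 10304 deposited gene-body fold changes equal a DESeq2 fit with a run term within 0.001 (log2), and all 10304 promoter-proximal ones equal such a fit with the gene-body size factors, so that fit and the deposited calls are one analysis. The 84 normalized per-library columns were not used, and 2 of the 16 samples had no column and are not analysed here.

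Counts were fitted in R 4.3.3 with edgeR 4.0.16 (TMM, filterByExpr, quasi-likelihood test), with terms for run and time, over all transcripts, with Benjamini-Hochberg adjustment at 0.05. The promoter-proximal minus gene-body log2 level (prior count 2) was fitted with limma 3.58.1. DESeq2 1.42.0 was an alternative. The edgeR and DESeq2 gene-body fits and the limma difference were run on simulated counts with known changes at 2 h. A limit on false calls was set for the gene-body fits only, and the promoter-proximal fit was not scored. Other coding transcripts were weighted to the short genes over 10 bins of gene-body reads per kb (density) or of counts. Total counts per library set the precision. Errors are standard errors of the fitted log2 changes, derived in edgeR from the change and its F statistic. They draw on spread shared across genes and all libraries fitted, and not on the compared libraries alone.

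Named short genes included the 6 largest called rises and falls per time in gene bodies and the 4 largest near promoters and in the difference. For these a mean of at least 100 counts in the region was asked. Also named were up to 5 per direction called at all 3 times, by adjusted p, and up to 4 per list plus those needed to describe it. The 3 on each side of the limit, the 3 densest, the 3 shortest and SMARCA5 were named as well. Further genes that fell at all 3 times (1 is not reported here) and those that differed between 2 h and 24 h were named after their values were seen. The set and the lists were chosen with earlier results of these data known. Promoters matched 958 of 1212 short genes (79.0%), too few for a share of motifs over the set, so that check is void.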

Additional observations from a re-analysis of the deposited data

Results flagged for a closer look

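In 6 of 56 groups of 4 or 5 libraries examined, 1 library stood apart from the others, and chance flags about 1 group in 20. Library A of run 3 at 6 h held 14.9% of its promoter-proximal reads in short genes, against 15.8% to 15.9% in the other libraries at 6 h. The untreated library A of run 3, the only untreated one of that run, stood apart for 4 genes. It held 91.4 CPM near the OBFC2B promoter against 37.4 to 42.1, 15.2 CPM in the DNAJB1 gene body against 11 to 12.1, 1.85 CPM in S100A4 against 0.642 to 0.853, and 5.88 CPM in SWSAP1 against 2.81 to 3.37. Near the CEBPB promoter, library A of run 2 at 6 h held 33.9 CPM against 16.7 to 19.1.

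Between 2 h and 24 h, edgeR's test of the difference itself passed for 11 short genes in gene bodies. Values at 24 h were lower by −0.90 (log2) in PAFAH1B3, −0.73 in BHLHE40 and −0.37 in RPL10. They were higher by 0.64 in NFKBIA, 0.71 in C10orf12, 0.72 in DUSP6, 0.76 in DDAH2, 0.89 in HLX, 0.93 in MFAP4, 1.30 in FAM166A and 1.63 in ID2. FAM166A overlaps TUBB4B by 122 bases, MFAP4 overlaps MAPK7 by 102 and RPL10 overlaps DNASE1L1 by 1101, so their shared reads cannot be assigned with certainty. With no run term 0 short genes passed this test (edgeR), and leaving out a library left between 1 and 27 short genes past the test.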

How the results depend on the processing

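The columns carry no replicate number of the labels, but they carry a letter, and a fit with a replicate block (each letter within a run, in place of the run term) was chosen after seeing the data. In run 2 the A minus B differences of 2 times correlated above 0.1 in 1 of 6 pairs of times in gene bodies (−0.07 to 0.13) and in 1 of 6 near promoters (−0.13 to 0.31), so the letters were not taken to pair the libraries. With the block, gene-body calls were 308, 196 and 184 at 2, 6 and 24 h and 3 between 24 h and 2 h, promoter-proximal calls 56, 28 and 28, calls of the difference between regions 32, 13 and 19, and the median excess over matched transcripts 0.27, 0.19 and 0.27. Counts below are short genes past the test at 2, 6 and 24 h, where a setting moved them by over 1.5 times, and the cause was not tested unless the setting itself removes genes or libraries. With no run term, gene-body calls were 123 at 2 h and 92 at 24 h, 0 between 24 h and 2 h, promoter-proximal calls 1 at 2 h and 1 at 24 h, calls of the difference between regions 0, 5 and 0, and the median excess over matched transcripts 0.26 at 6 h and 0.24 at 24 h. In run 2 alone, gene-body calls were 428 (269 up, 159 down) at 6 h and 491 (381 up, 110 down) at 24 h, 123 between 24 h and 2 h, promoter-proximal calls 235, 117 and 182, calls of the difference 232, 99 and 196, and the 24 h excess 0.25. DESeq2 with a run term gave 24 calls between 24 h and 2 h and 46 (26 up, 20 down) and 32 (16 up, 16 down) near promoters at 6 and 24 h. Gene-body size factors gave 3, 8 and 5 promoter-proximal calls, and DESeq2 with those factors, chosen after seeing the data, 5, 9 and 4. A limit of 4000 bases gave 219, 124 and 120 gene-body calls, 4 between 24 h and 2 h, 28, 9 and 9 near promoters, 21, 6 and 4 for the difference, and a 24 h excess of 0.30. A limit of 8000 bases gave 18 between 24 h and 2 h and an excess of 0.25. Without short genes near another transcript there were 204, 123 and 116 gene-body calls, 7 between 24 h and 2 h, 29, 18 and 12 near promoters, 20, 6 and 4 for the difference, and an excess of 0.25. A threshold of 0.01 gave 215, 86 and 75, then 3, near promoters 6, 4 and 3, and 4, 0 and 0 for the difference. Matched on counts, the 24 h excess was 0.23.

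Leaving out each library in turn gave 189 (without the 2 h library of run 1) to 446 gene-body calls at 2 h, 117 to 270 at 6 h (154 without the untreated library of run 3, and 122 and 117 without libraries A and B of run 2 at 6 h), and 48 to 249 at 24 h (48 and 68 without 24 h A and B). Between 24 h and 2 h it gave 1 (without 24 h B) to 27 (without the 2 h library of run 1). Where 1 library was left at 24 h it was assumed to vary like the other groups. Near promoters the ranges were 17 to 85, 3 to 46 and 1 to 36, and for the difference 4 to 67, 0 to 15 and 0 to 22. The excess ranged over 0.23 to 0.34, 0.15 to 0.21 and 0.25 to 0.30. Of 256 passing values of named genes, 61 passed in every alternative fit, and 0 reversed.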
